A study of Homo sapiens with 24 samples.

Results

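Broad H3K4me3 domains are unusually long stretches of chromatin in which histone H3 carries trimethylation of lysine 4. Here they were the autosomal regions of the H3K4me3 comparison in EndoC-βH3 cells with a width of 8000 bp or more, so they were selected on their width. There were 168 such domains among 95464 autosomal regions (0.176%), and among 97545 regions in all. A protein-coding transcription start site lay inside 141 of them, and these held the start sites of 176 genes. The widest domains included those at MEIS2, PAX6, ISL1 and NKX2-2, which encode homeodomain transcription factors, and at SLC30A8, which encodes the zinc transporter of insulin granules.

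EndoC-βH3 is a human beta cell line derived from fetal pancreas that divides because of 2 inserted genes, SV40 large T antigen and hTERT, both removable by a tamoxifen-dependent Cre. H3K4me3 was measured in 4 non-senescent samples and 4 senescent samples, all of wild-type genotype and with 500000 cells each. The senescent samples had received 4-hydroxytamoxifen for 3 weeks, at a dose whose unit differs between the labels and the methods, which removes the inserted genes, and both groups come from this single line. The assay was MINT-ChIP, in which digested chromatin of each sample is barcoded, pooled and then precipitated together, here with a polyclonal H3K4me3 antibody. The only measurement used here is the authors' mean normalized count of each region over the samples of both states. A domain may therefore have been present in non-senescent cells, in senescent cells or in both, the change between the states was not analysed here, and the values have no error over replicates. This value is the signal in what follows, and signal per kb is the same value divided by the width of the region. The counts and medians over regions below describe this set of regions and carry no test, because regions are not replicates.

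Trimethylation of lysine 4 is placed on promoter nucleosomes by the SET1 and MLL methyltransferase complexes, which are recruited in part through unmethylated CpG-rich DNA. At most active genes the mark forms a short peak around the start site. In many cell types a small set of genes carries it far into the gene body, and genes of cell identity are known to be frequent among them.

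Width and CpG content did not go together along the domains, so the sequence at the start site is shown for 4 genes with wide domains, and the far downstream end is shown for a pair of them. ISL1 (chr5:51383248-51383447, plus strand) encodes a LIM-homeodomain factor of islet cells, and BTG1 (chr12:92145847-92146046, minus strand) encodes an inhibitor of proliferation. CACNA2D1 (chr7:82443957-82444156, minus strand) encodes an auxiliary subunit of voltage-gated calcium channels, and the end of its domain lies at chr7:82434088-82434287. ACVR1C, which encodes the activin receptor ALK7, had a domain at each of 2 start sites. The upstream start is preceded by chr2:157628865-157629064, the end of its domain lies at chr2:157616385-157616584, and the internal start is preceded by chr2:157597561-157597760, all on the minus strand. Each is 200 bases in the direction of the gene, either directly before the RefSeq start (GRCh38.p14) or 500 bases inside the downstream end of the domain (hg38), and none overlaps an exon of a protein-coding gene. Capitals mark CpG dinucleotides.
ISL1 before the start: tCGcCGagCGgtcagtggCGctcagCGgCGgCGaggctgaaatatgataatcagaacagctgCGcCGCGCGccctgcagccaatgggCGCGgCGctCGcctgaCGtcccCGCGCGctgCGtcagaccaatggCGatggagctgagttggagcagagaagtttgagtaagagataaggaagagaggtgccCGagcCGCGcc
BTG1 before the start: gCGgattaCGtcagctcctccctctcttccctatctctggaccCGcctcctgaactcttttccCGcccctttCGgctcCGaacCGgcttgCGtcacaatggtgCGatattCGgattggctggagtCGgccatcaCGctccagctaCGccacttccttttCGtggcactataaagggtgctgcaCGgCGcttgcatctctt
CACNA2D1 before the start: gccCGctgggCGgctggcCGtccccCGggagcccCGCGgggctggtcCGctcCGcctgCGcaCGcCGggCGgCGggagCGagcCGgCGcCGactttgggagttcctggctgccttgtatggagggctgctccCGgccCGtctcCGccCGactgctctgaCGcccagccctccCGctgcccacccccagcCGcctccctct
CACNA2D1 domain end: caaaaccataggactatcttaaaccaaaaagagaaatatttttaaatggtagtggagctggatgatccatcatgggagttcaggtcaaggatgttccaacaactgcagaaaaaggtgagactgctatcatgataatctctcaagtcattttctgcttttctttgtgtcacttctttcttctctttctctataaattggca
ACVR1C before the upstream start: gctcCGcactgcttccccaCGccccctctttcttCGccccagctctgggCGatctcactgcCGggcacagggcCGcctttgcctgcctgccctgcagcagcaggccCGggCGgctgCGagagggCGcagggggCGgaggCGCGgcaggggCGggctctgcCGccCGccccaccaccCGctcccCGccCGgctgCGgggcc
ACVR1C domain end: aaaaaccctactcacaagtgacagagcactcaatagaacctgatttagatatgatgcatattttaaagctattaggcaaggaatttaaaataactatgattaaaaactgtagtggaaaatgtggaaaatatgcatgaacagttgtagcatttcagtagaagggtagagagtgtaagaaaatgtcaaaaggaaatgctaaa
ACVR1C before the internal start: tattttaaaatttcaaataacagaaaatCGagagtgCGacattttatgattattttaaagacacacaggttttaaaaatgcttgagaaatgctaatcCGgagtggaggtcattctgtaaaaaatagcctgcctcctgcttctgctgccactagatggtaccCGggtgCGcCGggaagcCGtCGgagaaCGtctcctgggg
The 200 bases before the start held 24 CpG dinucleotides at ISL1, 24 at CACNA2D1, 20 at the upstream start of ACVR1C and 16 at BTG1. The internal start of ACVR1C had 9. At the downstream ends of the CACNA2D1 and ACVR1C domains the same length held 0. Of the 176 genes, 148 had an entry in the RefSeq promoter sequences, with 189 start sites inside a domain and a median of 16 CpG in these 200 bases. Over all 35116 RefSeq promoter entries the median was 9, and 92.0% held at least 1. These entries were not limited to genes with an H3K4me3 region, so the medians do not compare domains with other marked promoters.

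The domains were 8.006 to 27.2 kb wide, with a median of 9.35 kb and quartiles of 8.52 and 11.2 kb. The median autosomal region was 678 bp wide, and 99% of autosomal regions were under 5349 bp. Of the domains, 61 were at least 10 kb wide, 12 at least 15 kb and 3 at least 20 kb, while 64 were under 9 kb. Just inside the limit lay the domains of KCTD3 (8006 bp), ASB1 (8006 bp) and C1orf116 (8007 bp), with signals of 186, 219 and 152. Just outside lay ERMN (7976 bp), LEMD3 (7972 bp) and FADS2 with FADS1 (7970 bp), with signals of 124, 238 and 150. The values on either side of the limit overlapped, so 8000 bp cuts through a continuous range of widths.

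Together the domains covered 1752 kb, which was 1.65% of the bases in autosomal regions, and held 3.06% of their summed signal. Signal per domain ran from 66.6 to 1011, with a median of 240 against 4.40 over all autosomal regions. Width alone raises a count, so the density is the more direct comparison. The median signal per kb was 24.5 in the domains (quartiles 19.7 and 28.9), 17.6 in all autosomal regions with a protein-coding start site and 6.29 in all autosomal regions. Among regions with a start site, the median density was 7.28 per kb below 1 kb of width, 14.1 at 1 to 2 kb, 20.6 at 2 to 4 kb, 23.3 at 4 to 8 kb and 24.9 in the domains. The steps beyond the class of 2 to 4 kb were smaller than those before it.

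**Figure D1:**
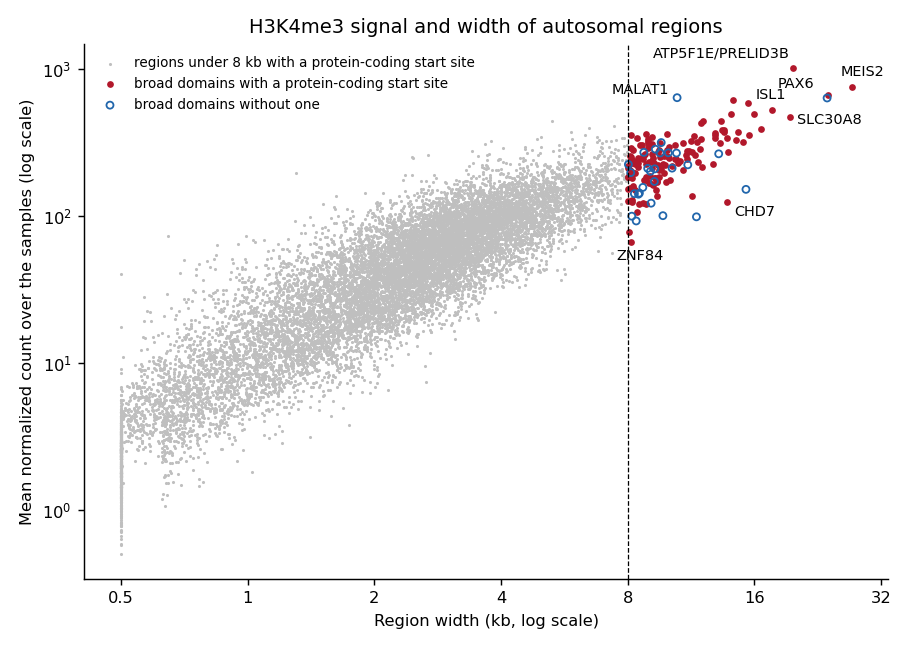
Width of autosomal regions in kb (x axis, log scale) against the authors' mean normalized count over the samples (y axis, log scale). Grey points are regions under 8 kb with a protein-coding start site, red points are the 141 domains with such a site, open blue circles are the 27 domains without, and the dashed line is the 8 kb limit; signal rose with width, and ATP5F1E with PRELID3B had the highest signal (1011) and CHD7 and ZNF84 lay among the lowest.

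The widest domain lay at MEIS2, which encodes a TALE homeodomain factor (chr15:37084622-37111856, 27.2 kb). Its signal was 751, or 27.6 per kb. It reached 13.4 kb upstream and 13.8 kb downstream of the median start site, so it was nearly symmetric. The domain at PAX6, which encodes a paired-box factor needed for islet hormone cells, was 23.9 kb wide (chr11:31798624-31822509) with a signal of 665. Its density of 27.8 per kb was close to that of MEIS2, and it also held starts of the antisense long non-coding RNA PAUPAR and of the gene model ENSG00000285283, which overlaps PAX6, so its signal cannot be divided between them.

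The highest signal of any domain, 1011 over 19.8 kb (chr20:59024448-59044230), lay over ATP5F1E, the epsilon subunit of mitochondrial ATP synthase, and PRELID3B, a mitochondrial lipid transfer protein. Both genes lay whole inside it, and its density of 51.1 per kb was the highest of all domains with a protein-coding start site. SLC30A8 had a domain of 19.5 kb (chr8:117132741-117152197) with a signal of 473. BTG1 had a domain of 16.0 kb with a signal of 497, and ISL1 of 15.4 kb (chr5:51379401-51394849) with 588. Density differed among these 4 domains, from 24.3 per kb at SLC30A8 to 38.1 at ISL1 and 51.1 at ATP5F1E with PRELID3B.

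Domains over 14 kb also lay at ZNF608 (17.6 kb, signal 526), at MAN1A1, a Golgi mannosidase of N-glycan trimming (16.6 kb, 392), and at CACNA2D1 (15.5 kb, 354). PFKFB2, whose product sets the level of the glycolysis activator fructose-2,6-bisphosphate, shared a domain of 15.1 kb and a signal of 320 with the deubiquitinase gene YOD1 on the opposite strand. SAMD3 and TMEM200A shared 14.5 kb with a signal of 329. BRINP3 had 14.2 kb and a signal of 613, or 43.0 per kb against 22.8 per kb at SAMD3 with TMEM200A. ZNF516 had 14.1 kb and a signal of 496.

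Several transcription factors of the beta cell had a domain. Of the 30 listed genes, 7 had a start site in a domain (23.3%), against 176 of 19111 autosomal protein-coding genes (0.921%). They were PAX6, ISL1, NKX2-2, ST18, NEUROD1, PDX1 and RFX6. With canonical start sites only, 6 remained, because the ST18 domain held no exon of the canonical transcript and lay at other starts. A region with a start site inside was found for 23 of the 30, and the median width of the widest such region was 6.08 kb, against 2.75 kb over the 12200 protein-coding genes with a region. The list was chosen with earlier results of these data known, so these values describe its members only.

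NKX2-2, a homeodomain repressor that keeps beta cells from other islet fates, had a domain of 14.6 kb (chr20:21510885-21525491) with a signal of 372. ST18, a zinc finger gene, had 13.5 kb and a signal of 385. NEUROD1, a basic helix-loop-helix activator of the insulin gene, had 13.4 kb (chr2:181674336-181687741) and a signal of 387, and shared the domain with an alternative start of CERKL. These 3 domains differed little in width and signal. PDX1, the homeodomain factor that directs pancreas formation and insulin transcription, had 11.6 kb (chr13:27915168-27926720) with a signal of 260. RFX6, a winged-helix factor of endocrine differentiation, had 11.1 kb (chr6:116874320-116885397) with a signal of 276. Among genes with a region, the width at RFX6, the narrowest of the 7, lay at percentile 99.6.

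Some other beta cell factors fell short of 8000 bp but lay high in the distribution. NKX6-1, a homeodomain factor of mature beta cells, had 6.87 kb and a signal of 173. SOX4 had 6.47 kb and 228, MNX1 6.26 kb and 101, and HNF4A 6.01 kb and 233. Signal thus varied among these genes of similar width, with MNX1 lowest and HNF4A highest. FOXA2, which encodes a pioneer factor of endoderm, had its signal in separate regions. The region with its own start site was only 1.03 kb wide with 67.0 per kb. A separate domain of 11.1 kb (chr20:22573404-22584515, signal 223) ended 57 bp from the nearest FOXA2 start. This domain overlapped the FOXA2 gene, with 22.3% of its bases exonic and 9.33% intronic. It also held the start of the long non-coding RNA LINC00261. At the low end, FOXA1 had 0.5 kb and ONECUT1 0.806 kb, and no region lay within 2 kb of a start of MAFA, a late activator of insulin transcription.

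Of 30 genes that carry out beta cell function 1 lay in a domain, SLC30A8 (3.33%), and the median width over the 27 with a region was 3.38 kb. Below the limit, the prohormone convertase gene PCSK2 had 7.77 kb with a signal of 341 and 43.9 per kb, a density above that of most domains. The granule protein gene CHGA had 6.75 kb with 169, and the calcium-binding protein gene SCGN 6.10 kb with 239. The hormone genes themselves were narrow. The region at INS, which encodes insulin, was 1.77 kb wide with a signal of 24.7, and the region at IAPP, which encodes islet amyloid polypeptide, was 0.918 kb wide with a signal of 6.94.

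The other lists had from 0 to 2 genes in domains, to be read against the 0.921% of all autosomal protein-coding genes. Of 31 tumour suppressor genes 2 had a domain (6.45%). They were CDKN2C, an inhibitor of CDK4 and CDK6, with 13.3 kb (chr1:50967003-50980280) and a signal of 312, and CDKN2A, the locus of p16 and p14ARF, with 8.32 kb (chr9:21989815-21998137) and a signal of 197. The CDKN2A domain held no exon of the canonical CDKN2A transcript, so it lay at other starts of the gene. It also held the start of the long non-coding RNA CDKN2B-AS1. The start of p16 was not located separately, so this domain is not a measure of the p16 promoter. The value at CDKN2A is a mean over samples of both states. In the same list BTG2 had 7.08 kb and FOXO3 6.53 kb, and the median over the list was 3.47 kb. Of 38 ribosomal protein genes 0 lay in a domain although all had a region, with a median width of 3.43 kb, and RPL3 (7.77 kb) and RPS3 (7.75 kb) came closest. Of 32 cell cycle genes, 0 did, with a median of 3.11 kb over 29 with a region.

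No marker gene of other cells in these lists had a domain, and at the share of 0.921% over all genes a count of 0 in lists of this size is near the background. The same holds for the ribosomal protein and cell cycle genes. For other pancreas cells the count was 0 of 17, and the 9 with a region had a median of 0.774 kb and a median signal of 6.15. For lineages outside the pancreas it was 0 of 17 with 6 having a region, and for the HOX clusters it was 0 of 39 with 5 having a region, at a median of 0.5 kb. TTR was the widest of the non-pancreas markers at 6.44 kb with a signal of 133, and it encodes transthyretin, which islet cells are also known to make. Of the markers of the labelled cell type, the factor genes had the wider median, 6.08 kb against 3.38 kb for the effector genes. Single genes varied in both lists. SLC30A8 had 19.5 kb and INS a narrow region, while FOXA1 had 0.5 kb and MAFA no region.

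**Figure D2:**
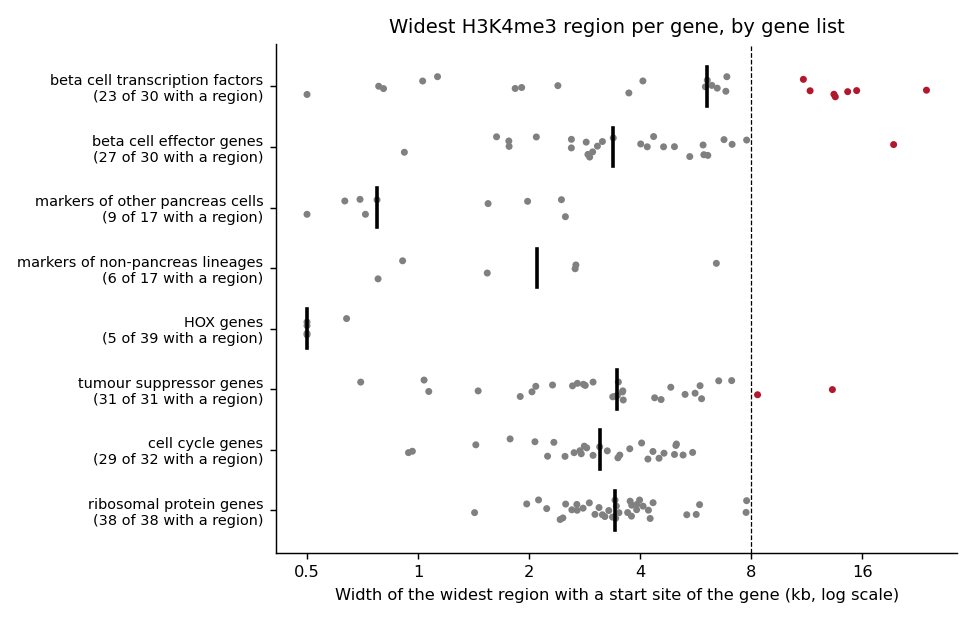
Width in kb (x axis, log scale) of the widest region that holds a start site of each gene, by gene list (y axis). Points are genes, red where the width is 8 kb or more (dashed line), black bars are list medians, and vertical scatter is random; 7 beta cell transcription factors, 1 effector gene and 2 tumour suppressor genes lay to the right of the line, and the factor list had the highest median (6.08 kb).

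A protein-coding start site lay in 83.9% of the domains (141 of 168, 95% Wilson interval 77.6 to 88.7%, counting error only), against 13.8% of all autosomal regions. This share rose with width in steps, from 3.48% of regions under 1 kb to 16.5% at 1 to 2 kb, 57.6% at 2 to 4 kb and 81.5% at 4 to 8 kb. A longer region covers more bases, and the part of length alone in this rise was not tested. Most domains belonged to a single gene, with 106 holding starts of 1 gene, 34 of 2 genes and 1 of 3. The last was a 9.42 kb domain at ANG, RNASE4 and the gene model ENSG00000259171 (signal 273), of which ANG and RNASE4 encode secreted ribonucleases that share promoters. In 28 domains the starts lay on both strands, and 61 also held the start of a long non-coding RNA.

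Most of the domains lay within genes rather than between them. Of their bases 66.9% were intronic, 9.86% exonic and 23.2% outside protein-coding genes. In 13 domains the canonical transcript of a gene lay whole inside the domain, 14 genes in all. Among these were the islet factor genes ISL1, NKX2-2, NEUROD1 and PDX1, the cell cycle inhibitor genes BTG1 and CDKN2C, and ATP5F1E, PRELID3B and HNRNPA1. For these short genes the mark ran past the end of the transcript, whereas at long genes such as CACNA2D1 it stopped within the gene.

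The domains mostly extended into the gene. Of 113 domains whose starts lay on 1 strand, 96 (85.0%, Wilson interval 77.2 to 90.4%) were longer downstream of the median start site than upstream. The median reach was 2.61 kb upstream (quartiles 1.58 and 4.03 kb) and 7.07 kb downstream (5.56 and 8.72 kb). SLC30A8 reached 2.29 kb upstream and 17.2 kb downstream, and BTG1 2.86 and 13.1 kb. The domain of ATP5F1E with PRELID3B had 18.3 of its 19.8 kb downstream, but it holds both genes whole. Its downstream reach is therefore not that from the start of 1 gene alone. ISL1 reached 4.27 kb upstream and 11.2 kb downstream. Narrow promoter regions of similar signal, described below, leaned the same way, with 76 of 81 (93.8%) longer downstream and medians of 1.13 and 2.26 kb.

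The remaining domains leaned the other way, and those described here, apart from NKX2-2, ST18 and NEUROD1, were named after their values were seen. NKX2-2 reached 11.4 kb upstream and 3.18 kb downstream. CHD7, a chromatin remodeller, reached 11.3 and 2.50 kb. TSHZ1, a zinc finger factor, reached 8.77 and 0.524 kb, and ST18 reached 8.19 and 5.33 kb. The CHD7, TSHZ1 and ST18 domains lay wholly inside the gene. Their upstream reach is therefore gene body before an internal start, not sequence outside the gene. NEUROD1 with CERKL was close to even at 7.22 and 6.18 kb. Of the 7 beta cell factors with a domain, NKX2-2, ST18 and NEUROD1 were longer upstream, ISL1, PDX1 and RFX6 were longer downstream, and PAX6 had starts on both strands.

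**Figure D3:**
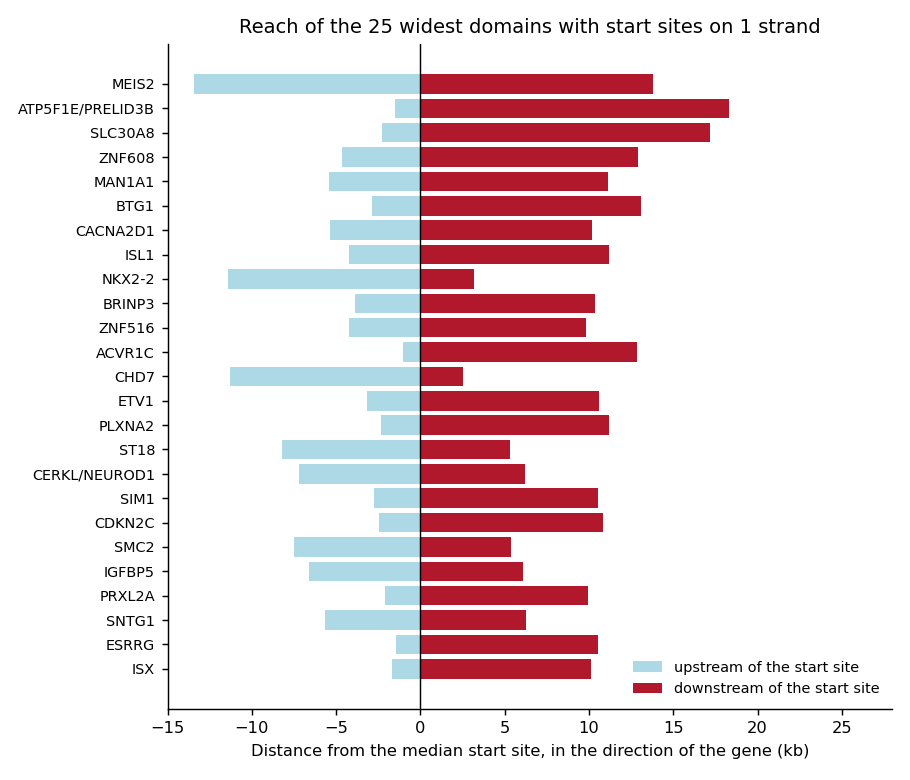
Reach in kb (x axis) upstream (blue) and downstream (red) of the median start site, in the direction of the gene, for the 25 widest domains with start sites on 1 strand (y axis). Most red bars are longer than the blue bars of the same domain, as at SLC30A8 (17.2 kb down, 2.29 kb up), and NKX2-2, CHD7 and ST18 show the opposite. The CHD7 and ST18 domains lay wholly inside the gene.

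Narrow promoter regions with similar signal gave a measure of what comes with width. They were 108 autosomal regions under 4000 bp with a protein-coding start site and a signal between 152 and 385, the range of the middle of the promoter domains, which is 0.979% of the 11032 narrow promoter regions. Their median width was 3.47 kb and their median signal 173, below the 246 of the domains with a start site, so the match is partial. Their density was 52.3 per kb, against 24.9 in the domains with a start site. This difference follows from choosing narrow regions at similar signal and is not a separate result. Over the whole region, the domains were poorer in CpG, with medians of 21.2 against 31.8 CpG per kb, an observed to expected ratio of 0.435 against 0.581, a GC content of 43.0% against 46.9% and 13.3% against 25.7% of 200-base windows rich in CpG. There were 2 or more genes in 24.8% of the domains and 29.6% of the narrow regions.

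The order turned when only 2 kb centred on the start site were read. There the domains had a median of 55 CpG per kb (quartiles 37.5 and 72) and 56.1% GC, against 46.5 (39.4 and 55.1) and 52.2% in the narrow regions. The 140 domains with bases farther than 2 kb from any start site had a median of 7.61 CpG per kb in those bases, below the 10.1 of the autosomal genome. In profile, the medians of the domains were 60 CpG per kb in the last 0.5 kb before the start and 64 in the first 0.5 kb after it, 10 at 1.5 to 2 kb and 6 at 3 to 3.5 kb, and stayed between 4 and 6 from there to 9.5 kb. The mark in these domains thus ran for kilobases over sequence poor in CpG, as at the CACNA2D1 and ACVR1C domain ends shown above.

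**Figure D4:**
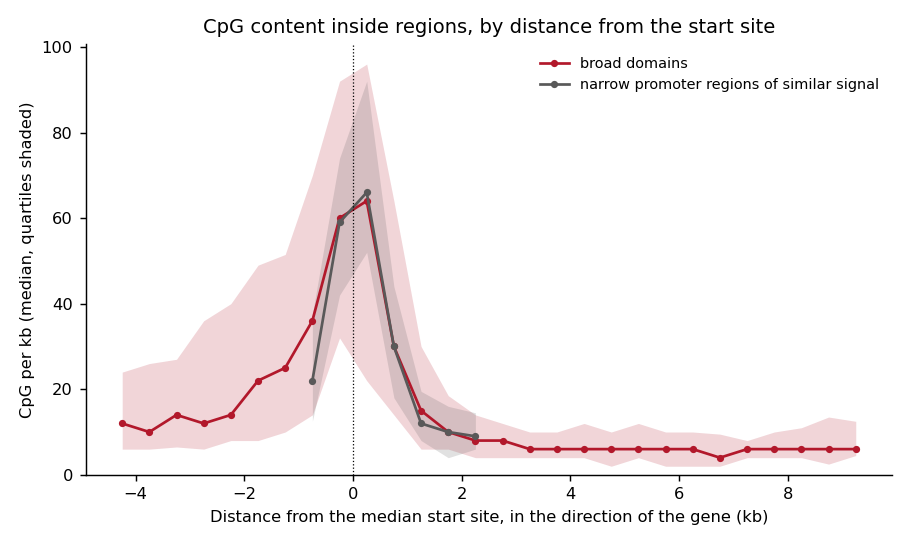
CpG dinucleotides per kb (y axis) in 0.5 kb bins by distance in kb from the median start site in the direction of the gene (x axis), inside domains with starts on 1 strand (red) and inside narrow promoter regions of similar signal (grey). Lines are medians over regions, shading spans the quartiles, and bins with under 20 regions are left out; both groups peak at the start (64 and 66 per kb in the first 0.5 kb) and the domains continue at 4 to 6 per kb beyond 3 kb downstream.

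Single domains departed widely from this profile. PCDH7, a protocadherin gene, had 57.6 CpG per kb over its whole domain, NKX2-2 had 53.8, DLL4, a Notch ligand gene, 48.7, PAX6 45.5 and PDX1 43.8. At the other end lay CSRNP3 with 5.01 and SLC30A8 with 5.24 CpG per kb, and ALDH1A1, a retinaldehyde dehydrogenase gene, with 6.60. These genes were named after their values were seen. SLC30A8 and NKX2-2, both in the widest domains, thus stood at opposite ends, with 2.06% and 39.7% of windows rich in CpG.

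Among the domains with a start site, signal per kb ran from 8.19 to 51.1. Besides ATP5F1E with PRELID3B, the densest included BRINP3 (43.0 per kb), BCL2L1, which encodes the survival protein Bcl-xL (41.2), and PPP1R15B, a regulatory subunit of the phosphatase that acts on eIF2α (40.3). The least dense were ZNF84 (8.19), CHD7 (9.10), STARD10, a lipid transfer protein gene (9.65), MORC2 with TUG1 (12.0) and PIK3R4 (12.6). The low values lay below the 17.6 per kb of the median promoter region, so a wide domain was not always a dense domain.

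The 27 domains without a protein-coding start site were about as wide as the rest (medians 9.28 and 9.40 kb) with 20.8 against 24.9 signal per kb, and poorer in CpG (12.8 against 21.2 per kb). In 10 of them a long non-coding RNA started. The densest domain of all was of this kind, the 10.5 kb domain over MALAT1, an abundant nuclear RNA (chr11:65496127-65506607), with a signal of 638 and 60.9 per kb. DLEU2 and DLEU1 shared 8.74 kb with a signal of 271, and DSP-AS1 lay in 9.99 kb with 269. A protein-coding start lay within 2 kb of 5 domains, at distances of 57 bp for FOXA2, 153 bp for PHC2, 272 bp for DSP, 380 bp for CMIP and 460 bp for KCNG3. The domains at PHC2, DSP, CMIP and KCNG3 lay wholly inside these genes, and that at FOXA2 overlapped the gene in part. The PHC2 domain, in a Polycomb group gene, was 13.2 kb wide with a signal of 265.

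Neither kind of start was found inside 17 domains, 10 overlapping bodies of protein-coding genes and 7 outside genes. The widest was the third widest domain of all, 23.8 kb at ASXL3 (chr18:33736276-33760082), a gene related to Polycomb. Of its bases 43.1% were exonic and 19.5% intronic, and the rest lay outside protein-coding genes. The domain lay 130.6 kb from the nearest start of ASXL3, and its signal of 635 and density of 26.7 per kb were close to those of PAX6. Its sequence held 7.69 CpG per kb, with 0 windows rich in CpG. Those of 15.3 and 11.7 kb on chromosomes 21 and 22 lay 2567 and 4046 kb from the nearest start sites, of TPTE and OR11H1. Their sequence occurs about 2 and 4 times in the genome, and their densities of 9.94 and 8.48 per kb are uncertain because reads may map to several copies.

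The domains were unevenly spread over chromosomes. Chromosome 20 held 13, or 20.2 per 100 Mb, against 5.51 over the other autosomes together, which ranged from 0 on chromosome 19 to 8.25 on chromosome 12. The 13 included NKX2-2, the domain that overlaps FOXA2, ATP5F1E with PRELID3B, BCL2L1, CBFA2T2 and MYT1. Promoter regions of chromosome 20 also had a higher signal in general, with a median of 63.7 against 42.4 elsewhere and a median width of 2772 against 2334 bp, and 3.00% of them were broad against 1.02%. The part of the general promoter signal of chromosome 20 in its count of domains was not tested, and the copy number of the chromosome in these cells was not analysed here.

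**Figure D5:**
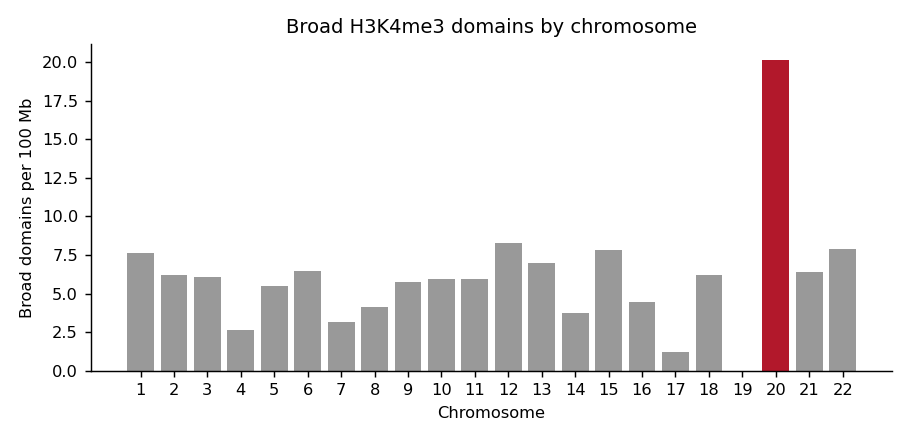
Broad domains per 100 Mb (y axis) for each autosome (x axis), with chromosome 20 in red. Chromosome 20 stands at 20.2 and the other chromosomes between 0 and 8.25.

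Another region lay within 1 kb of 85 of the 168 domains and within 5 kb of 145. The same counts were not made for other regions, so they are not read as particular to the domains. At RFX6 the gap to the next region downstream was 991 bp, and at NKX2-2 it was 958 and 949 bp on its sides, so the edges of these domains depend on where regions were split. In 3 cases domains lay under 100 kb apart, namely C1orf116 and YOD1 with PFKFB2 (12.0 kb apart), the pair at RIMBP2, a presynaptic scaffold gene (63.1 kb), and the pair at ACVR1C (17.4 kb). Of the ACVR1C domains, the upstream one was 13.9 kb wide with a signal of 273, the internal one 9.37 kb with 174, and their densities of 19.7 and 18.5 per kb differed little.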

How the data were processed

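MINT-ChIP for H3K4me3 covered 4 samples of each state of EndoC-βH3 cells. The 16 samples of other marks are not analysed here. Bowtie2 was used by the authors for alignment to hg38, with samtools for later steps. The authors called peaks with HOMER findPeaks and compared the states with DESeq2. How regions were merged, how reads were counted and whether duplicates were removed is not given in the sources used here. The signal used is the authors' deposited mean normalized count of each region over the samples, with no SD or n. The remaining deposited columns hold the authors' own comparison of the states (fold change, its error, test statistic and p-values) and were not used, so no change was computed. There were 0 columns of values per sample, so depth per sample is unknown. The region limits were read as given, and whether they count from 0 or 1 is not stated, an uncertainty of 1 base.

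Domains were autosomal regions of 8000 bp or more. GENCODE release 44 gave the start sites of all protein-coding genes' transcripts, and upstream and downstream were read from the median start site. GC and CpG content came from hg38, with windows of 200 bases called CpG-rich at 50% GC or more and an observed to expected ratio of at least 0.6. Narrow regions were under 4000 bp with a start site and a signal between the 10th and 90th percentile of the promoter domains. Copy number was the median count, over up to 60 stretches of 24 bases, in 194 hg38 sequences. Promoter sequences came from RefSeq. Intervals are 95% Wilson intervals for counting error.

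The members and the 8 gene lists were chosen with earlier results of these data known. The genes named by rule are those of the 15 widest domains, list genes in domains, the 5 most and 5 least dense domains with a start site, the 5 with most genes, the 5 widest without a start site and the 3 on either side of the limit, and other names were added after the values were seen. Some genes that the rule names are not reported here. Alternatives were other widths, joined regions, canonical or nearby start sites, and other comparison groups. Scripts were tested on simulated regions with known answers. Python 3.11.15, numpy 2.4.6, pandas 2.3.3, scipy 1.17.1, numba 0.67.0 and matplotlib 3.10.9 were used.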

Additional observations from a re-analysis of the deposited data

How the results depend on the processing

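Of 74 alternatives, 55 left the value where it was by the limits set for each kind of value and 19 moved it. The number of domains was 602 at a width of 6000 bp or more, 61 at 10000 bp or more and 523 with regions under 1000 bp apart joined, against 168. With canonical start sites 73.2% of the domains held a start, against 83.9%. The share of domains denser than the median promoter region was 85.7%, and 91.8% at 10000 bp or more. The share of domains below the narrow regions' median CpG per kb was 84.4%, and 36.2% when only 2000 bp at the start site were read, so that the direction of this comparison turned. At 6000 bp or more the lists had 13 beta cell factors, 5 effector genes, 1 non-pancreas marker (TTR), 4 tumour suppressor genes, 2 ribosomal protein genes and 657 genes in all. Joined regions gave 4 effector genes (SLC30A8, CHGA and PCSK2 among them), 4 tumour suppressor genes, 3 ribosomal protein genes and 533 genes in all. At 10000 bp or more 1 tumour suppressor gene and 64 genes remained in domains. Canonical start sites left 1 tumour suppressor gene, CDKN2C, and 6 of the 7 beta cell factors, without ST18. No paired analysis was possible because the deposited values hold no value per sample, and leaving out replicates or filtering on counts per sample could not be run for the same reason. Depth limits could not be set.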
